A study of Salmo trutta with 45 samples.

Results

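Livers of brown trout exposed to a low concentration of glyphosate were compared with livers of unexposed fish. The low glyphosate group (LG) held 6 fish and the control group 12, together 18 of the 45 liver RNA-seq libraries of the study, and the members were taken by the treatment given in the labels. Each library was made from the liver of 1 juvenile female, 6 months old, reared at an aquaculture facility, and no strain or genetic alteration is given for either group. LG fish were kept for 14 days in flow-through water that held analytical-grade glyphosate at a nominal 0.01 mg/L, and controls for 14 days in water with none added (0 mg/L). Each treatment was held in replicate tanks, and the tank of a fish is not given in the labels, so tank and treatment cannot be told apart. The p-values below take each fish as 1 independent sample. According to the paper, its controls were combined from separate control groups after a comparison found them closely alike. The labels do not tell these groups apart, so the controls were treated here as a single group. A difference between the original control groups was not tested, and control ranges and SDs below are those of the pooled fish. The other libraries, from higher glyphosate doses and from the formulation Roundup, were not used.

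Glyphosate blocks an enzyme of aromatic amino acid synthesis that plants and many microbes have and animals lack. In animals the liver takes up and clears foreign compounds, makes most plasma proteins, and balances the synthesis, storage and burning of lipids and glucose. Cholesterol synthesis there is set by sterol-sensing transcription factors, protein folding by the unfolded protein response of the endoplasmic reticulum (ER), and inflammation by NF-kappa B and interferon signalling.

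The libraries held 12922030 to 25747108 mapped reads, and 76.0% to 82.6% of these fell on Trinity transcripts that carry a zebrafish gene id. Reads were summed over the transcripts of each id, which gave 10550 zebrafish ids, and levels are given as CPM, counts scaled by TMM to a common library size. CPM is not corrected for length, so levels are compared between fish and not between genes. One exposed fish, LG1, stood apart. Its median Pearson correlation with the 12 controls, over log2 CPM, was 0.87, against 0.952 to 0.966 for each of the other 17 fish. LG1 was the highest of 18 fish in 31.1% of the 9672 ids at 1 CPM or more and the lowest in 18.7%, whereas no other fish was highest in more than 6.57% or lowest in more than 8.43%. It lay more than 2-fold above the control mean in 1581 ids, against 61 to 236 in the other fish. Its TMM scaling factor was 0.796, the lowest of the 18. Differences between the groups are therefore given with LG1 and without it, and a value of LG1 alone describes 1 fish and has no test. In whole liver, fewer cells of a type and less RNA per cell cannot be told apart.

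In the quasi-likelihood test of edgeR, no row passed a false discovery rate (FDR) of 0.1. That was 0 of 21042 rows tested, which are 10550 zebrafish ids and the Trinity components without one (0.0%), and the smallest FDR was 0.271. At an unadjusted p below 0.05 there were 1613 rows. Without LG1 no row passed either (0.0%), the smallest FDR was 0.641, and 811 rows had an unadjusted p below 0.05. Limma-voom also called 0 rows. Leaving out LG3 gave 1 row, comp114644_c0, a Trinity component without a zebrafish id that was lower in LG, and leaving out any other single fish gave 0. The exact test of edgeR called 131 rows at FDR below 0.1 (0.623%), 111 of them higher and 20 lower in LG. DESeq2 called 23 (0.11%) of the 20883 rows to which it gave an FDR. It gave none to some rows in which LG1 was far above the controls and which the exact test called, such as egr1 and hspa5. LG1 was the highest of the 18 fish in 102 of the 111 rows that the exact test called higher, and the lowest in 8 of the 20 called lower. Without LG1 the exact test called 6 rows (0.0285%) and DESeq2 called 6 (0.0286%). All 6 of each were also called by the same test with LG1, in fits that share 17 fish.

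Among the zebrafish ids, 642 were higher in LG at an unadjusted p below 0.05 (6.09%) and 209 lower (1.98%). Without LG1 the counts were 169 higher (1.6%) and 183 lower (1.73%). In both fits, which share 17 fish, 118 ids were higher and 121 lower at that threshold. The median log2 fold change over all ids was 0.036 with LG1 and −0.002 without it, and the median of its absolute value was 0.15 and 0.109. An absolute log2 fold change above 1 was found for 143 of the 9672 ids at 1 CPM or more with LG1 and for 37 without it. The excess of higher over lower ids thus held with LG1 in the group and not without it. Whatever their p, 5982 of the 10550 ids were above 0 with LG1 and 5224 without it, and 4568 and 5326 were below 0. These counts and shares over all ids are the background for the list counts below.

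**Figure D1:**
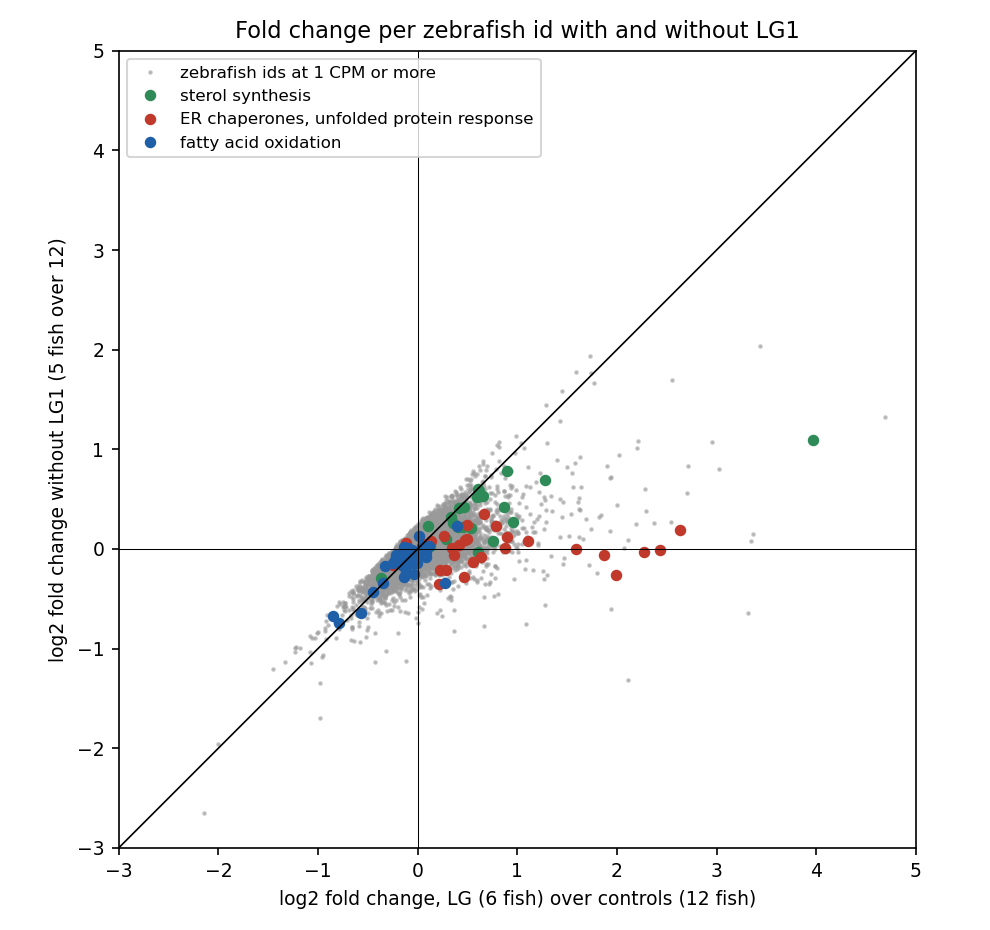
Log2 fold change of LG over controls per zebrafish id at 1 CPM or more, from the quasi-likelihood fit of 6 LG fish and 12 controls (horizontal axis) and from the fit without LG1 (vertical axis); the diagonal marks equal values. The ER chaperone ids (red) spread to the right along zero on the vertical axis, with a list median of 0.49 with LG1 and 0.00 without it. The sterol synthesis ids (green) lie mostly above zero on both axes, with medians of 0.60 and 0.32, and the fatty acid oxidation ids (blue) mostly below zero on both.

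The gene with the smallest p among ids at 1 CPM or more was phkb (ENSDARG00000078284), the beta subunit of phosphorylase kinase, which switches on glycogen breakdown. Its level was 7.42, 8.98 and 10.9 CPM (lowest, median, highest) in the controls and 4.05, 5.66 and 7.06 CPM in LG. Every exposed fish lay below every control. The means were 9.18 ± 1.21 CPM (SD, n = 12) and 5.67 ± 1.17 (SD, n = 6), a log2 fold change of −0.69 ± 0.13 (SE), with an exact permutation p of 5.39e-05, the smallest that the 18564 splits of 18 fish can give, and an FDR of 0.271. That FDR is of the quasi-likelihood test, and with the same 18 fish DESeq2 gave 0.00227 and the exact test of edgeR 0.0172. Without LG1 the log2 fold change was −0.61 ± 0.12. Its FDR was then 0.641 in the quasi-likelihood test, 0.0294 in DESeq2 and 0.188 in the exact test of edgeR. Of the 10550 ids, phkb was the 1 in which all 6 LG fish lay below all 12 controls (0.00948%). Since phkb was picked for its small p, and full separation sets the permutation p at its smallest, that p adds no support.

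The 1 id in which all 6 lay above all 12 (0.00948%) was annotated c1orf51 (ENSDARG00000088171). In mammals this gene is known as CIART, a repressor within the circadian clock. Its mean was 0.995 CPM, just below the level set for naming genes, so it was singled out after its values were seen. The controls ran from 0.223 through a median of 0.612 to 0.919 CPM and the LG fish from 1.08 through 1.57 to 4.74 CPM, the last in LG1. The log2 fold change was 1.81 ± 0.32 with LG1 and 1.35 ± 0.28 without it. The exact permutation p was 5.39e-05 and 0.000323. The FDR of DESeq2 was 0.00165 and 0.0294, and that of the quasi-likelihood test 0.271 and 0.641. The id was picked for its full separation, which puts a permutation p at or near its smallest, so that p adds no support. That the groups also did not overlap without LG1 follows from the same choice. LG1 was the highest fish by a wide margin over LG3 at 1.7 CPM. An id of similarly low level that DESeq2 also called in both fits, with FDR of 0.00165 and 0.00609, was ENSDARG00000077336, which the annotation leaves without a function and which was likewise singled out after its values were seen. Controls held 0.045, 1.46 and 3.98 CPM of it and LG fish 0.0 to 0.279 CPM, so that the groups overlapped only at the lowest controls. Its log2 fold changes were −3.11 and −3.30, and its quasi-likelihood FDR 0.271 and 0.756. The id annotated matn2 (ENSDARG00000015947), though described as matrilin 4, was also singled out after its values were seen. DESeq2 called it higher in both fits, with FDR of 0.0698 and 0.0391. Controls held 0.0, 0.145 and 0.624 CPM of matn2 and LG fish 0.279 to 3.25 CPM, the lowest in LG1. Its log2 fold changes were 2.8 and 3.0, with quasi-likelihood FDR of 0.328 and 0.641.

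Among the ids at 1 CPM or more that were lower in LG with the smallest p without LG1, 2 belong to metabolism. The level of cpt2 (ENSDARG00000038618), carnitine palmitoyltransferase II, which hands long-chain fatty acids to the mitochondrial matrix for burning, was 11.9, 16 and 18.9 CPM in controls and 10.8, 11.5 and 12.8 CPM in LG. All 6 LG fish lay below the control median and 3 below every control. The log2 fold change was −0.45 ± 0.10 with LG1 (exact permutation p = 0.000269, FDR = 0.328) and −0.43 ± 0.11 without it (exact permutation p = 0.000646, FDR = 0.886), and DESeq2 gave an FDR of 0.0413 and 0.229. The other was phkb.

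The remaining lower ids of that rule included signalling, matrix and stress genes. For chrm4 (ENSDARG00000069254), a muscarinic acetylcholine receptor, controls held 0.445, 1.15 and 2.4 CPM and LG fish 0.162, 0.275 and 0.673 CPM. That is near the lower limit of detection, with a log2 fold change of −2.0 ± 0.43 with LG1 and −1.96 ± 0.47 without it. In chrm4 5 of the 6 LG fish lay below every control. DESeq2 gave chrm4 an FDR of 0.0114 with LG1 and 0.0519 without it. For adamts10 (ENSDARG00000075188), a secreted metalloproteinase of the extracellular matrix, controls held 9.13, 12.3 and 13.2 CPM and LG fish 2.51, 7.63 and 10.5 CPM, the lowest in LG1. Its log2 fold change was −0.74 ± 0.20 with LG1 and −0.57 ± 0.14 without it, and 5 of 6 LG fish lay below every control. For gadd45a (ENSDARG00000069991), a growth arrest gene induced by DNA damage, controls held 1.68, 2.85 and 4.9 CPM and LG fish 0.688, 1.44 and 2.12 CPM, with log2 fold changes of −0.96 ± 0.25 and −1.06 ± 0.27. LG1 was not the lowest fish in gadd45a or in armc7 (ENSDARG00000061197), an armadillo repeat protein, whose log2 fold change was −0.58 ± 0.19 with LG1 and −0.73 ± 0.18 without it. The Rab GTPase activator rabgap1 (ENSDARG00000010297) had values of −0.52 ± 0.13 and −0.45 ± 0.13, and ENSDARG00000038293, which the annotation leaves without a function, −0.66 ± 0.16 and −0.58 ± 0.16. The quasi-likelihood FDR of these 6 ids was 0.271 to 0.483 with LG1 and 0.886 to 1 without it.

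Of the ids at 1 CPM or more that were higher, glcci1 and mknk2 had the smallest p without LG1. Some ids below that level, c1orf51 and matn2 among them, had a smaller one. The first (ENSDARG00000008503) is named for its induction by glucocorticoids in mammalian cells. Controls held 11.6, 14.7 and 21.9 CPM of glcci1 and LG fish 16.2, 23.3 and 29 CPM. LG1, at 21.7 CPM, lay inside the control range, and the log2 fold change was 0.58 ± 0.14 with it (exact permutation p = 0.00113, FDR = 0.395) and 0.61 ± 0.15 without it (exact permutation p = 0.0021, FDR = 0.886). The second, mknk2 (ENSDARG00000015164), encodes a kinase that MAP kinases activate and that phosphorylates the cap-binding factor eIF4E. Controls held 13.4, 17.8 and 24.7 CPM of mknk2 and LG fish 20, 28.4 and 49 CPM, the last in LG1. Its log2 fold change was 0.75 ± 0.16 with LG1 and 0.56 ± 0.14 without it, and DESeq2 gave an FDR of 0.0413 and 0.351. In both genes all 6 LG fish lay above the control median and 3 of the 6 above every control.

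Ferredoxin 1 (fdx1, ENSDARG00000056410) passes electrons to mitochondrial P450 enzymes of steroid and bile acid synthesis. Controls held 12.7, 17.5 and 28 CPM of fdx1 and LG fish 22.4, 27.5 and 51.8 CPM. LG1 and LG4 were the 2 high fish, at 51.8 and 49.4 CPM, and the log2 fold change was 0.80 ± 0.20 with LG1 and 0.64 ± 0.20 without it. For tfpi2 (ENSDARG00000061351), a Kunitz-type inhibitor of serine proteases, it was 0.84 ± 0.23 and 0.77 ± 0.24. It was 0.66 ± 0.17 and 0.66 ± 0.18 for wdr19 (ENSDARG00000037406), a component of ciliary transport, and 0.68 ± 0.21 and 0.73 ± 0.22 for znf609 (ENSDARG00000043246), a zinc finger protein. In these 3 all 6 LG fish lay above the control median. Insulin receptor substrate irs4 (ENSDARG00000052065) was higher in 4 of 6 fish than the control median, with 0.43 ± 0.18 and 0.55 ± 0.17. The last id of the rule, ENSDARG00000093201, was high only in LG5 and LG6, at 6.37 and 5.89 CPM, against at most 1.97 CPM in controls and 1.85 CPM in the other LG fish. None of these ids passed FDR 0.1 in the quasi-likelihood test.

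**Figure D2:**
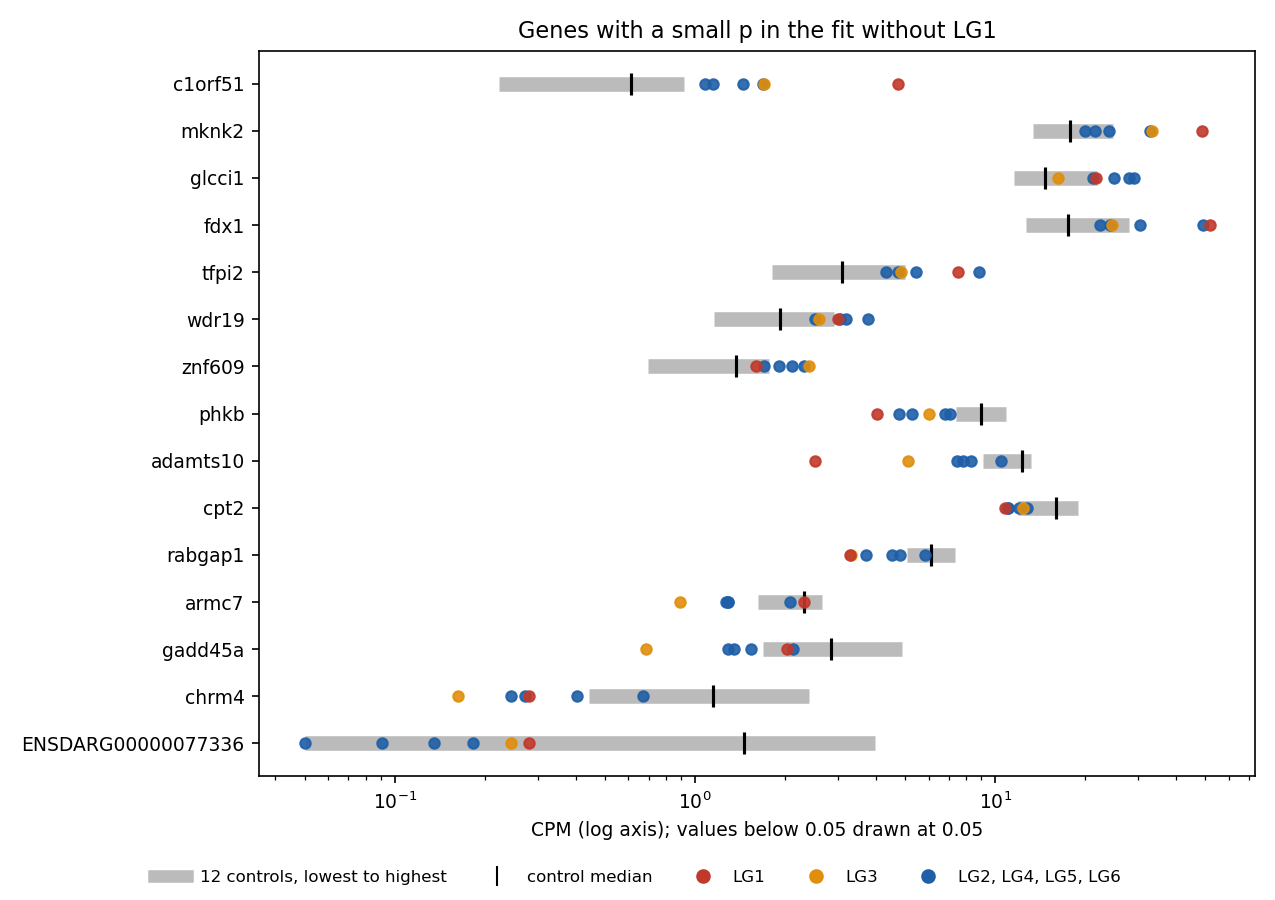
Levels (CPM, log axis) of 15 ids with a small p in the fit without LG1; grey bars run from the lowest to the highest of 12 controls, ticks mark the control median, and points are single LG fish, LG1 in red and LG3 in orange. In phkb and c1orf51 the 6 points lie outside the bar, and in the other genes at least 1 point lies within it.

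Sterol synthesis was the list whose median lay furthest from that of all genes, with or without LG1. Cholesterol is built from acetyl-CoA through the mevalonate pathway and the squalene pathway, and the transcription factor srebf2 with its escort protein scap switches on most of these enzymes when cell sterol is low. The median log2 fold change of the 25 ids was 0.60 with LG1 and 0.32 without it, beside 0.036 and −0.002 for all ids. With LG1, 23 of 25 ids were above 0, and without it 22 of 25, beside 5982 and 5224 of all 10550 ids. At an unadjusted p below 0.05, 12 (48.0%) were higher with LG1 and 5 (20%) without it, none lower. The shares of all ids higher at that threshold were 6.09% and 1.6%. Among the 5 sterol ids higher without LG1 were fdft1, msmo1, sc5dl and srebf2. No member passed FDR 0.1.

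A value per fish was taken for each list as the median, over its members, of log2 CPM minus the control mean. For sterol synthesis it was 1.22 in LG1 and 0.21 to 0.53 in the other 5 LG fish. In the controls it ran from −0.57 through 0.00 to 0.52. All 6 LG fish thus lay above 0, LG1 lay above every control, LG6 just above, and the other 4 within the upper part of the control range.

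Early in the pathway, the synthase hmgcs1 (ENSDARG00000052738) differed from most of the list in sign, with 51.9, 70.9 and 113 CPM in controls and 41.1, 52.3 and 86.6 CPM in LG, a log2 fold change of −0.37 ± 0.18 with LG1 and −0.29 ± 0.18 without it. One of 6 LG fish lay above the control median of hmgcs1.

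Squalene synthase fdft1 (ENSDARG00000060260) was 3.08, 5.33 and 10.4 CPM in controls and 4.01, 9.76 and 39.6 CPM in LG, the last in LG1. Its log2 fold change was 1.28 ± 0.35 with LG1 and 0.69 ± 0.29 without it. Next in the pathway, sqle (ENSDARG00000079946), the squalene epoxidase, had 0.90 ± 0.43 and 0.78, with 2.64, 11.5 and 38.5 CPM in controls and 8.59 to 33.6 CPM in LG. Both enzymes varied several-fold among the controls alone.

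Among the later steps, for msmo1 (ENSDARG00000055876), the methylsterol oxidase, controls held 60.0, 82.4 and 177 CPM and LG fish 112, 136 and 185 CPM. All 6 LG fish lay above the control median, and the log2 fold change was 0.60 ± 0.20 with LG1 and 0.52 ± 0.21 without it, with exact permutation p of 0.009 and 0.0247 and FDR of 0.508 and 1. For sc5dl (ENSDARG00000044642), the C5 desaturase, it was 0.47 ± 0.18 and 0.42 ± 0.18, again with all 6 fish above the control median. The reductase tm7sf2 (ENSDARG00000032816) had 0.35 ± 0.16 with LG1 and 0.26 ± 0.16 without it. Another reductase, dhcr7 (ENSDARG00000015564), differed less, with 0.10 ± 0.17 and 0.23 ± 0.16 and a low value of 78 CPM in LG1.

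Among the regulators, controls held 14.1, 20.3 and 33 CPM of srebf2 (ENSDARG00000063438), and LG1 held 88 CPM while the other 5 LG fish held 17.5 to 32.6 CPM, within the control range. The log2 fold change was 0.87 ± 0.25 with LG1 and 0.42 without it. The escort scap (ENSDARG00000018096) had 67 CPM in LG1 and at most 21.1 CPM in the others, with 0.96 and 0.27. Acetyl-CoA acetyltransferase acat2 (ENSDARG00000007127) was at 225 CPM in LG1 and its log2 fold change moved from 0.61 ± 0.33 to −0.03 ± 0.25. Cholesterol 25-hydroxylase (ENSDARG00000045190), which makes an immune-regulated oxysterol and is not a step of synthesis, was at 61.5 CPM in LG1 and 5.18 CPM in LG3, against 0.453 to 0.812 CPM in the other LG fish and 0.116 to 1.84 CPM in controls. The low density lipoprotein receptor (ENSDARG00000029476), which takes up cholesterol, had 0.28 ± 0.25 and 0.10 ± 0.26.

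**Figure D3:**
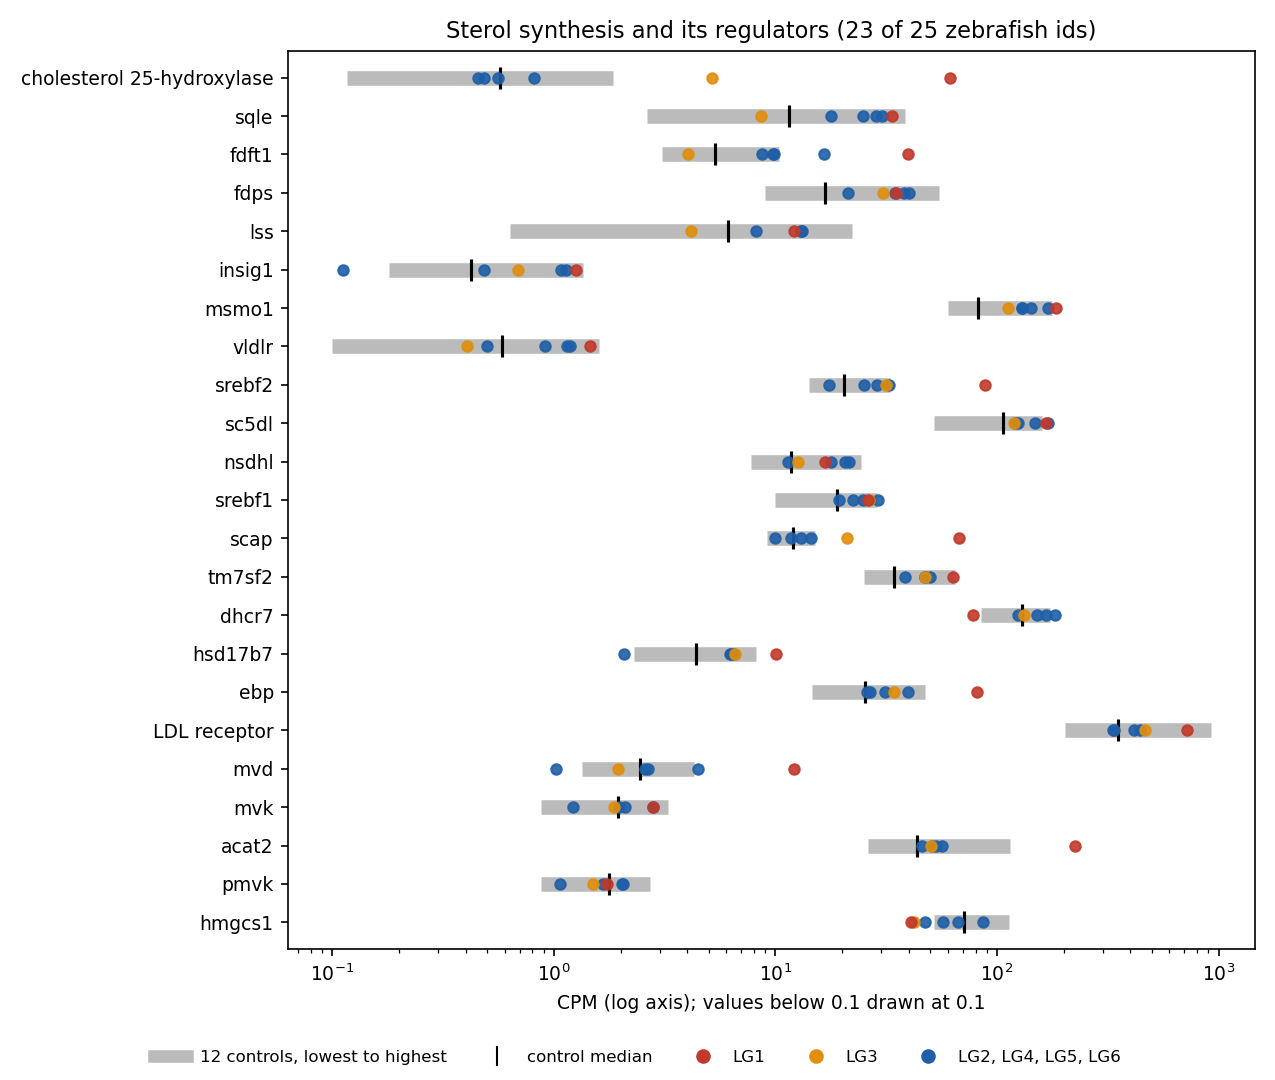
Levels (CPM, log axis) of 23 of the 25 sterol synthesis ids, ordered by the fold change without LG1; grey bars span the 12 controls, ticks mark the control median, points are single LG fish. In msmo1, sc5dl, fdps, tm7sf2 and acat2 all 6 points lie to the right of the control median, and in srebf2, scap, acat2 and cholesterol 25-hydroxylase LG1 (red) lies far right of the other LG fish.

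Fatty acid oxidation, in which mitochondria and peroxisomes burn lipids, had a list value below 0 in all 6 LG fish, in 4 of them within the control range. The median log2 fold change of its 37 ids was −0.14 with LG1 and −0.09 without it. With LG1 28 ids and without it 31 were below 0 (4568 and 5326 of all 10550 ids). At an unadjusted p below 0.05, 4 and then 5 were lower (10.8% and 13.5%, against 1.98% and 1.73% of all ids), none higher. By fish the median ran from −0.37 in LG1 to −0.07 in LG3, and the controls ran from −0.21 to 0.25. Besides cpt2, acadvl (ENSDARG00000016687), the first dehydrogenase for very long chains, had 54.1, 84.6 and 114 CPM in controls and 52.6, 66.7 and 75.6 CPM in LG. Its level lay below the control median in all 6 LG fish, and its log2 fold change was −0.35 ± 0.14 with LG1 and −0.34 without it. The thiolase acaa2 (ENSDARG00000038881) had −0.57 ± 0.21 and −0.64 ± 0.22, and the coactivator of mitochondrial genes ppargc1a (ENSDARG00000067829) −0.85 ± 0.32 and −0.67. Another member differed less. Electron transfer flavoprotein etfa (ENSDARG00000043944) had −0.14 ± 0.10 and −0.09 ± 0.10.

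Most respiratory chain and ribosomal genes had log2 fold changes slightly below 0. Of 79 respiratory chain and ATP synthase ids, 63 with LG1 and 71 without it were below 0 (4568 and 5326 of all 10550 ids). The medians of these 79 were −0.10 and −0.11, while 3 (3.8%) were lower at an unadjusted p below 0.05 in each fit, against 1.98% and 1.73% of all ids. The median was −0.04 without LG5. LG5 had the lowest value of the 18 fish, −0.41, and lay below all controls in 36 of the 79 ids (45.6%, against 8.77% of all ids in that fish). The other LG fish lay between −0.13 and 0.05, within the controls' −0.27 to 0.27. The complex I subunit ndufa13 (ENSDARG00000095242) had 29.4, 34.7 and 39.4 CPM in controls and 22.3, 27.7 and 30.9 CPM in LG. Its log2 fold change was −0.31 ± 0.10 with LG1 and −0.30 ± 0.10 without it (exact permutation p = 0.000485 and 0.00129), and 4 of 6 LG fish lay below every control. Of 78 cytosolic ribosomal proteins, 74 with LG1 and 76 without it were below 0, but the medians were only −0.07 and −0.08 and the LG fish, from −0.17 to 0.14, lay within the controls' −0.32 to 0.48. The ribosomal median was −0.02 without C4. Members of 1 complex vary together, so their number does not add independent evidence.

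As a list, genes of ER protein folding were above the control range in LG1 and within it in the other LG fish. These chaperones and disulfide isomerases fold secreted proteins, and the unfolded protein response raises them when folding falls behind. The median log2 fold change of the 32 ids was 0.49 with LG1 and 0.00 without it. The ids higher at an unadjusted p below 0.05 numbered 14 (43.8%) and 1 (3.12%), against 6.09% and 1.6% of all ids. By fish the list was at 1.71 in LG1, −0.13 to 0.35 in the other LG fish and −0.33 to 0.68 in controls, with C4 the highest control. LG1 lay above all controls in 24 of the 32 ids (75%, against 32.5% of all ids in that fish).

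The ER chaperone hspa5 (ENSDARG00000004665), also called BiP, was at 1250.0 CPM in LG1, 15.8 to 99 CPM in the other LG fish and 24.1, 38.3 and 163 CPM in controls. LG1 was thus 32.6-fold above the control median, and the log2 fold change of 2.27 ± 0.66 with LG1 became −0.03 ± 0.41 without it. Its cofactor dnajb11 (ENSDARG00000015088) was 34.5-fold and the large chaperone hyou1 (ENSDARG00000013670) 37.1-fold above the control median in LG1, with log2 fold changes of 0.19 ± 0.38 and −0.01 ± 0.40 without it. Other members were less extreme. In LG1 calreticulin (calr, ENSDARG00000043276) was 6.18-fold, hsp90b1 (ENSDARG00000003570) 6.13-fold and p4hb (ENSDARG00000052589) 3.09-fold above the control median. LG1 lay above every control in these genes, but some controls came near it. The highest control reached 2410.0 CPM of hsp90b1 beside 2690.0 CPM in LG1, and 1560 CPM of p4hb beside 1770 CPM. In calr the gap was wider, with 990 CPM in the highest control and 1360 CPM in LG1. For pdia5 (ENSDARG00000069242), a disulfide isomerase, 4 of the 6 exposed fish lay above every control. It had 9.19, 11.3 and 13.1 CPM in controls and 10.8, 15 and 35 CPM in LG, with 0.67 ± 0.18 with LG1 and 0.35 ± 0.12 without it, and was the 1 member with p below 0.05 in that fit.

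The machineries around folding were also high in LG1. ER-associated degradation and export (51 ids) had 13 ids (25.5%) and then 1 id (1.96%) higher at an unadjusted p below 0.05 with and without LG1. Over all ids the shares were 6.09% and 1.6%. Proteasome subunits (47 ids) had 7 (14.9%) and then 0. Aminoacyl-tRNA synthetases (31 ids), which charge tRNAs, had 7 (22.6%) and then 0. The cytosolic heat shock proteins (32 ids) had 2 (6.25%), near the share of all ids, and then 0, with 2 lower without LG1. In LG1 the medians of these 4 lists were 1.17, 1.07, 1.41 and 0.79, and in the other LG fish they lay between −0.19 and 0.09. The signal recognition particle subunit srp72 (ENSDARG00000014139), which targets proteins to the ER, stood out from its list. It had 16.1, 18.7 and 23.3 CPM in controls and 20.9, 23.1 and 60.4 CPM in LG, and 0.26 ± 0.09 without LG1 (exact permutation p = 0.00485, FDR = 1). For nars (ENSDARG00000061100), asparaginyl-tRNA synthetase, LG1 held 111 CPM and the other LG fish 10.7 to 17.7 CPM, within the controls' 7.11 to 20.6 CPM. Genes of serine, asparagine and one-carbon synthesis with ATF4-type stress genes (27 ids) had a median of 0.31 with LG1 and 0.13 without it, and 22 and 21 of them were above 0. Among them chac1 (ENSDARG00000070426), which degrades glutathione under stress, was 14.9-fold above the control median in LG1 and had −0.15 ± 0.26 without it, whereas nupr1 (ENSDARG00000094557) was low in LG1, 128 CPM against 502 to 1220.0 CPM in controls.

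Inflammatory genes were high in LG1 and, to a lesser degree, in LG3. NF-kappa B is a family of transcription factors released by tumour necrosis factor and toll-like receptors. The 64 ids of this signalling had a median log2 fold change of 0.36 with LG1 and 0.10 without it. At an unadjusted p below 0.05, 20 (31.2%) and 3 (4.69%) were higher, against 6.09% and 1.6% of all ids, and none lower. The median by fish was 1.31 in LG1 and 0.40 in LG3, both above the highest control at 0.24, and −0.13 to 0.05 in the other 4. LG3 lay above all controls in 26 of the 64 ids (40.6%, against 6.92% of all ids in that fish). Without both fish the median was −0.10 and 1 id was higher at that threshold, in a fit added after the data were seen.

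The flagellin receptor tlr5 (ENSDARG00000052322) was at 369 CPM in LG1, 144 CPM in LG3 and 4.98 to 6.5 CPM in the other LG fish, against 1.9, 5.85 and 20.2 CPM in controls. Its log2 fold change was 3.44 ± 0.76 with LG1 and 2.04 ± 0.66 without it, but its exact permutation p was 0.0859 and 0.355, since 4 of 6 exposed fish were at the control level. The metalloreductase steap4 (ENSDARG00000055901) followed the same order, with 2940.0 CPM in LG1, 1070.0 CPM in LG3 and 95.9 to 208 CPM in the others, against 77.1 to 483 CPM in controls. So did the transcription factor subunits annotated nfkb1 (ENSDARG00000038687), though described as p49/p100, the product of a paralog, with 167, 74.3 and 22 to 36.3 CPM, and relb (ENSDARG00000086173), with 120.0, 70.3 and 7.04 to 22.1 CPM. The inhibitor nfkbia (ENSDARG00000005481), itself an NF-kappa B target, had 106 CPM in LG1 and 80.3 CPM in LG3 against at most 50.3 CPM in controls. The receptor tnfrsf1a (ENSDARG00000018569) differed from these in that LG2 was high too. It had 54.9, 41.4 and 35.7 CPM in LG1, LG2 and LG3, against 20.7 to 29.9 CPM in controls, and 0.43 ± 0.15 with LG1 and 0.24 without it.

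The interferon response, which arms cells against viruses, gave 14 of 36 ids higher at an unadjusted p below 0.05 with LG1 (38.9%) and 0 without it. Over all ids the shares were 6.09% and 1.6%. The interferon median by fish was 1.25 in LG1 and 0.50 in LG3, above the highest control at 0.29, and −0.26 to 0.22 in the others. The antiviral enzyme rsad2 (ENSDARG00000004952) was 20.2-fold and its neighbour in function cmpk2 (ENSDARG00000031359) 16.8-fold above the control median in LG1, while LG3 lay within the control range in both. Of antigen presentation, b2m (ENSDARG00000053136) and cd74 (ENSDARG00000009087) had log2 fold changes of 0.08 ± 0.13 and 0.04 ± 0.21 with LG1. LG3 lay outside the controls in both. It held 235 CPM of b2m against at most 212 CPM, and 74.6 CPM of cd74 against at least 96.3 CPM.

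Among immediate early and stress kinase genes (69 ids), 15 with LG1 (21.7%) and 4 without it (5.8%) were higher at an unadjusted p below 0.05, and 1 was lower in each. The shares of all ids higher were 6.09% and 1.6%. By fish the list was at 0.45 in LG1, 0.24 in LG3 and 0.23 in LG2, each above the highest control at 0.17. The early transcription factor egr1 (ENSDARG00000037421) was at 132 CPM in LG1, 1.46 to 3.76 CPM in the other LG fish and 0.581 to 4.1 CPM in controls. In fosl2 (ENSDARG00000040623) and junb (ENSDARG00000074378), subunits of AP-1, LG3 was also high, with 9.15 and 55.5 CPM against at most 3.19 and 23.5 CPM in controls. The phosphatase dusp1 (ENSDARG00000007628), which ends MAP kinase signalling, had 28.7 CPM in LG1 and 6.97 CPM in LG3 against 0.802 to 3.5 CPM in controls. Syndecan sdc4 (ENSDARG00000059906) and the actin regulator ssh2 (ENSDARG00000077623) followed, with 116 and 82.4 CPM in LG1 and 31 and 33.3 CPM in LG3, against at most 17.6 and 18.6 CPM in controls. These 3 were named because DESeq2 called them with LG1 and not without it.

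Among the genes with the widest gap between LG1 and the other fish was g0s2 (ENSDARG00000078859), an inhibitor of adipose triglyceride lipase. It was at 361 CPM in LG1 and 26.4 CPM in LG3, against 0.546 to 2.17 CPM in the other LG fish and 0.45, 1.79 and 5.71 CPM in controls. LG1 was thus 202-fold above the control median, and the log2 fold change was 4.69 ± 0.99 with it and 1.32 ± 0.70 without it, with exact permutation p of 0.29 and 0.977. The amino acid transporter slc43a1 (ENSDARG00000037393), with 154 CPM in LG1 and 26.8 CPM in LG3 against 2.62 to 9.93 CPM in controls, and complement component c7 (ENSDARG00000057121), with 424 and 62.1 CPM against 3.57 to 25.4 CPM, had the same 2 high fish. In LG1 alone were high a PR-domain transcription factor (ENSDARG00000002445), at 52 CPM against at most 2.07 CPM in all other fish, the peptidoglycan recognition protein pglyrp2 (ENSDARG00000015626), at 87.1 CPM against at most 6.55 CPM, and the endothelial adhesion molecule sele (ENSDARG00000009123), at 45.1 CPM against at most 3.96 CPM. An id annotated as a carcinoembryonic antigen-related adhesion molecule (ENSDARG00000041119) was at 43.9 CPM in LG1 and its log2 fold change was 2.11 ± 1.02 with it and −1.32 ± 0.99 without it, and 3.87 without C4, the control that held 16.4 CPM.

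LG1 also had low genes. The scaffold protein shank1 (ENSDARG00000060539) was at 0.419 CPM in LG1 against 54.6 to 106 CPM in the other LG fish and 43.1 to 107 CPM in controls. No reads of itgbl1 (ENSDARG00000040985), of the cohesin regulator cdca5 (ENSDARG00000044437) or of 2 uncharacterized ids (ENSDARG00000040135 and ENSDARG00000087012) were counted in LG1. In itgbl1 and ENSDARG00000087012 a control also had none, and in the latter LG4 had none either.

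**Figure D4:**
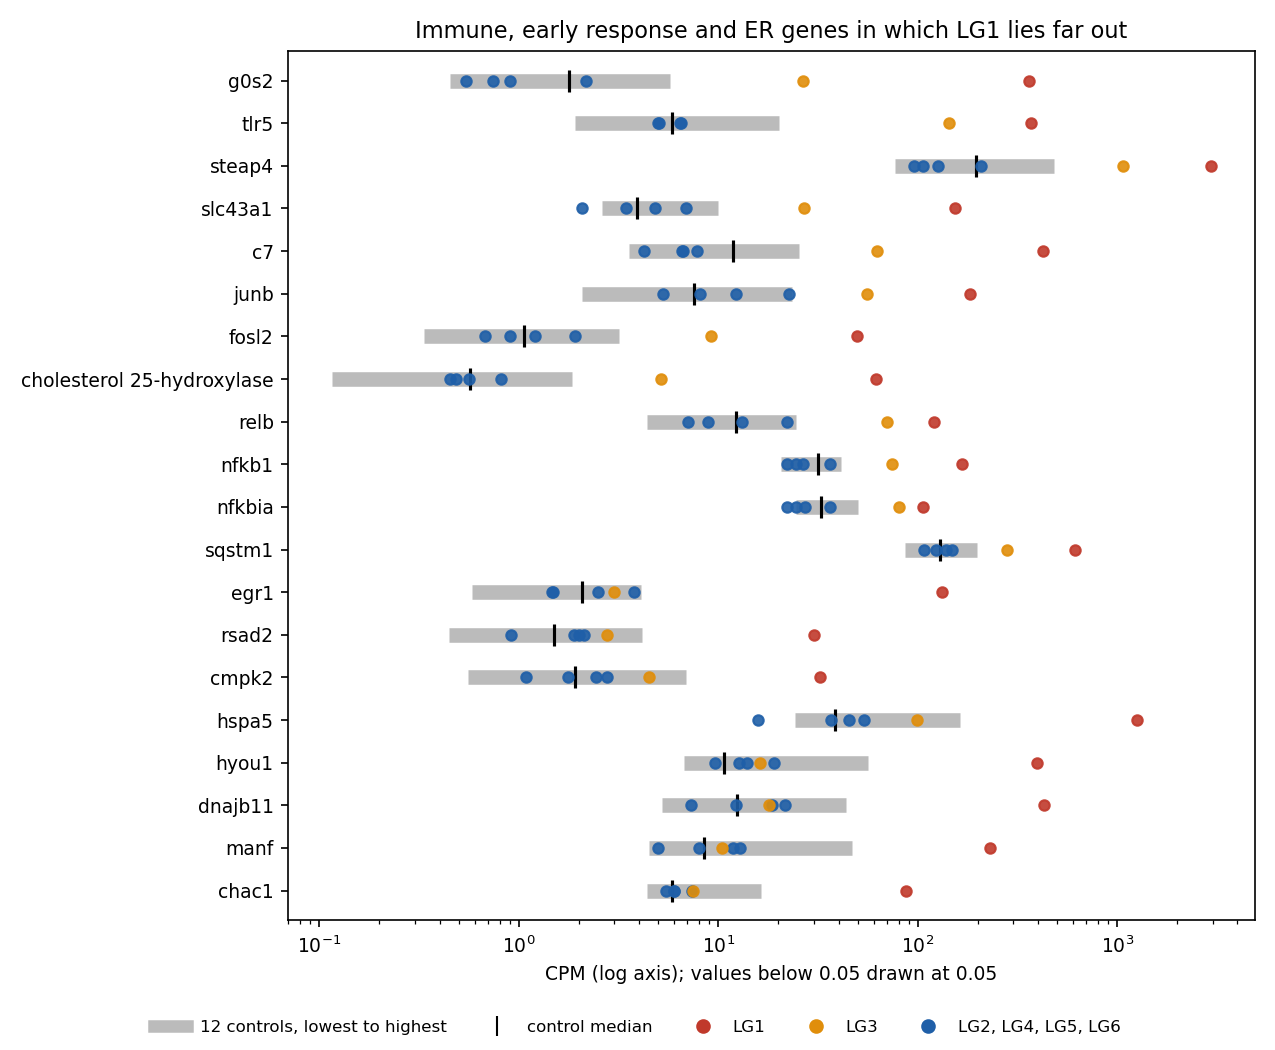
Levels (CPM, log axis) of 20 immune, early response and ER genes; grey bars span the 12 controls, ticks mark the control median, points are single LG fish. In the genes from g0s2 to sqstm1 both LG1 (red) and LG3 (orange) lie right of the control bar, from egr1 down LG1 alone does, and the other 4 LG fish (blue) lie within the bar or close to it.

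Genes for secreted liver proteins were near the control level. Coagulation factors, fibrinogen and serpins (33 ids), complement (35) and acute phase and plasma carriers (28) had median log2 fold changes of 0.01, −0.02 and 0.04 with LG1 and −0.01, −0.09 and −0.04 without it. Each had 1 id higher at an unadjusted p below 0.05 with LG1 (3.03%, 2.86% and 3.57%, against 6.09% of all ids). The id of complement component c3a (ENSDARG00000012694) was at 112000 CPM in LG1, 40000 to 67500 CPM in the other LG fish and 31400, 56000 and 95300 CPM in controls. The fibrinogen chain fgb (ENSDARG00000008969) was at 15500 CPM in LG1 against 4340 to 9450 CPM in controls and 5340 to 8240 CPM in the others. The copper carrier ceruloplasmin (cp, ENSDARG00000010312) was at 6820 CPM in LG1 against 2360 to 3730 CPM in controls, and LG5, at 4080 CPM, was also above them, with 0.37 ± 0.17 with LG1 and 0.12 ± 0.14 without it. Apolipoproteins and lipoprotein handling (23 ids) had medians of −0.07 and −0.04. Hepatic lipase lipc (ENSDARG00000053476) was the 1 id of this list at an unadjusted p below 0.05 without LG1. It varied widely, with 1.26, 9.43 and 36.4 CPM in controls and 2.23 to 87.5 CPM in LG, LG5 and LG6 being the high fish, and its exact permutation p was 0.215 and 0.231.

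**Figure D5:**
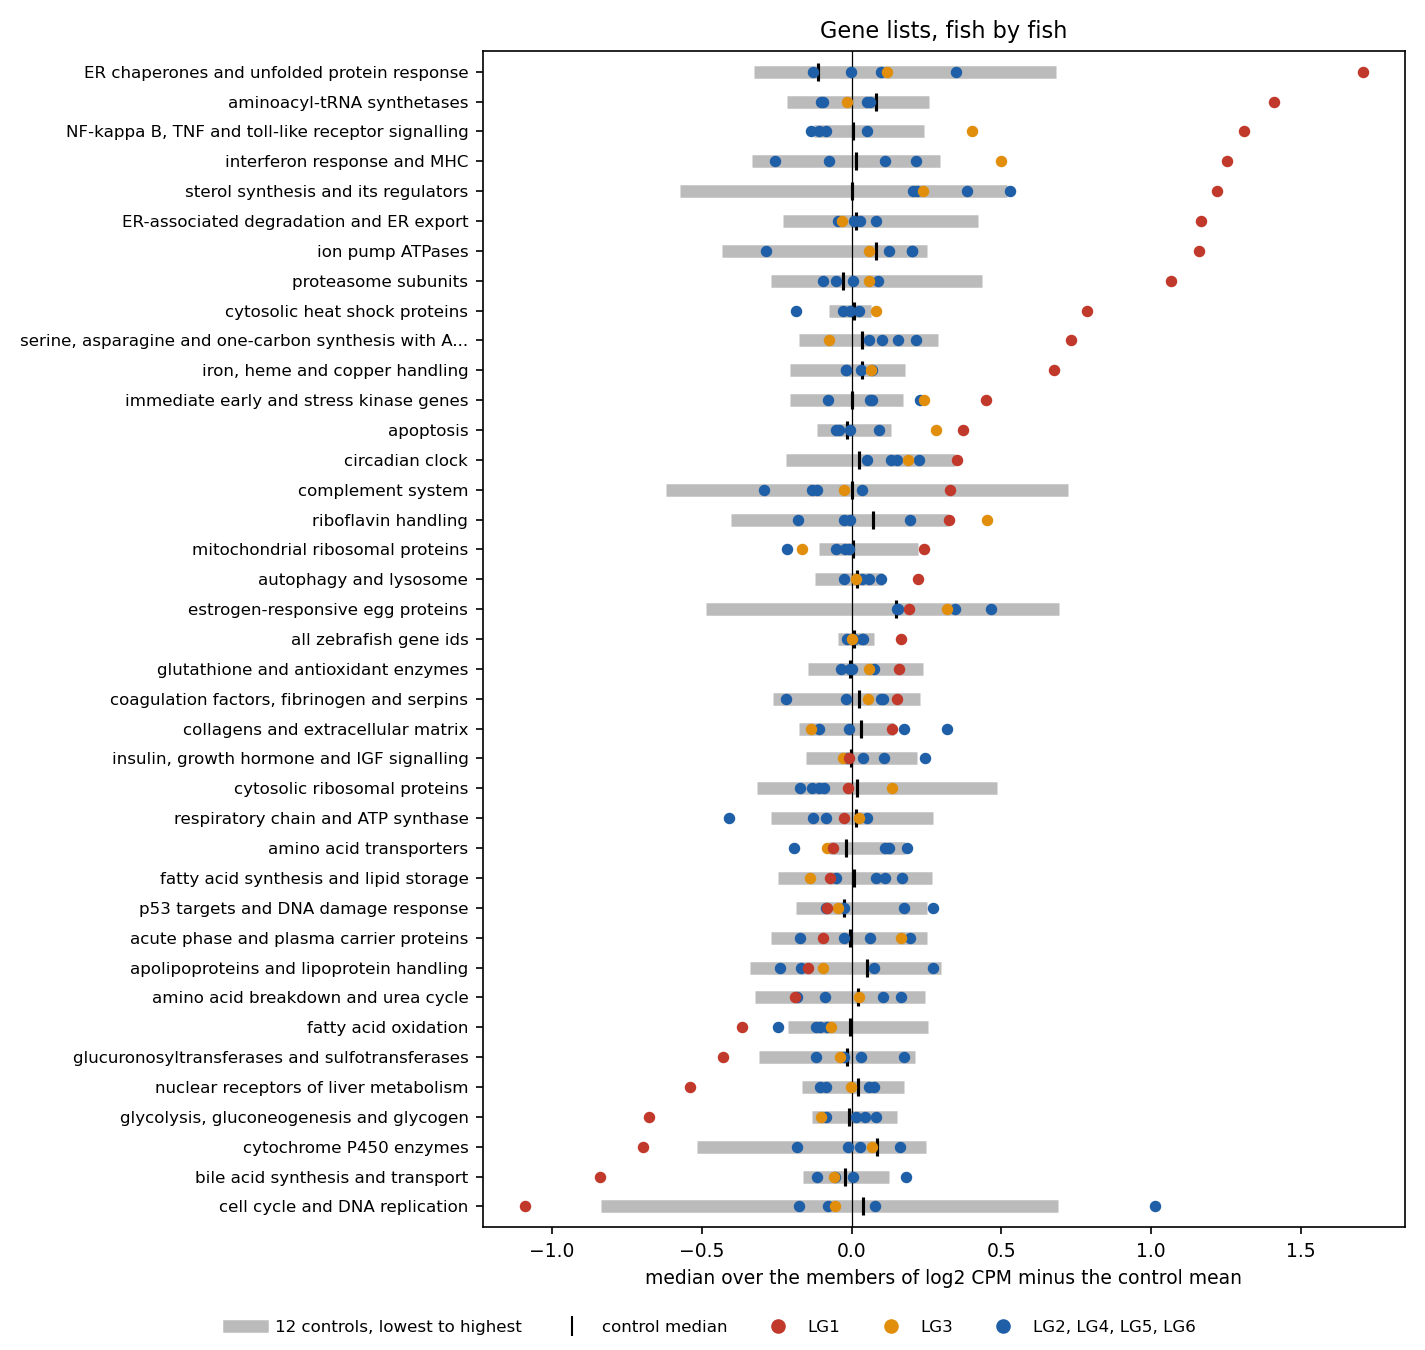
Median over the members of each gene list of log2 CPM minus the control mean, for all zebrafish ids and 38 lists, ordered by the value of LG1 (red); grey bars span the 12 controls, ticks mark the control median, other points are LG3 (orange) and LG2, LG4, LG5 and LG6 (blue). LG1 lies right of the bar in the upper lists, up to 1.71 for ER chaperones, and left of it in the lower ones, down to −1.09 for cell cycle genes.

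Detoxifying and antioxidant enzymes were near the control level as lists in the LG fish other than LG1. In the antioxidant list LG1 also lay within the control range. Cytochrome P450 enzymes (30 ids), which oxidize foreign compounds and steroids, had a median of −0.12 with LG1 and −0.05 without it, and 1 id was lower at an unadjusted p below 0.05 in each fit, none higher. LG1 was at −0.70, below the lowest control at −0.52, and the other LG fish lay between −0.18 and 0.16. The id annotated cyp2j2 (ENSDARG00000022650) was at 345 CPM in LG1, 1250.0 to 1560.0 CPM in the other LG fish and 908, 1530.0 and 2050.0 CPM in controls. Glucuronosyltransferases and sulfotransferases (24 ids), which conjugate such compounds, had medians of −0.09 and −0.08. There LG1 was at −0.43, below the lowest control at −0.31. Glutathione and antioxidant enzymes (40 ids) had medians of 0.06 and −0.03, with 5 (12.5%) and 1 (2.5%) ids higher at an unadjusted p below 0.05. Over all ids the shares were 6.09% and 1.6%. LG1 was at 0.16 in this list, inside the controls' −0.15 to 0.24. It lay above all controls in 13 of the 40 ids (32.5%, the same share as over all ids in that fish) and below them in 6 (15%, against 19.5%). Catalase (cat, ENSDARG00000004909) had 596, 742 and 972 CPM in controls and 534, 704 and 808 CPM in LG, the lowest in LG1, and a log2 fold change of −0.13 ± 0.12 and −0.07 ± 0.12. Both ids of the lipid peroxidase gpx4 were highest in LG1 and LG5, with 27.3 and 12 CPM for ENSDARG00000068478 and 94.8 and 28.5 CPM for ENSDARG00000076836, against at most 7.93 and 20.3 CPM in controls.

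In the lists of glucose and bile acid metabolism LG1 lay below every control, as it did for the P450 enzymes. Glycolysis, gluconeogenesis and glycogen genes (35 ids) were at −0.68 in LG1 and −0.10 to 0.08 in the other LG fish, against −0.13 to 0.15 in controls, and bile acid synthesis and transport genes (18 ids) at −0.84, −0.12 to 0.18 and −0.16 to 0.12. The medians of the log2 fold change were −0.11 and −0.04 with LG1 and 0.00 and 0.05 without it. Glyceraldehyde-3-phosphate dehydrogenase (gapdh, ENSDARG00000043457) was at 888 CPM in LG1 against 1370.0 to 2110.0 CPM in the other LG fish and 1430.0, 1870.0 and 2510.0 CPM in controls. The bile salt export pump abcb11 (ENSDARG00000070078) was at 450 CPM in LG1 and 748 to 2030.0 CPM in the other LG fish, against 604 to 1630.0 CPM in controls, so LG1 lay below and LG4 above the control range. Not all members were low in LG1. Enolase eno1 (ENSDARG00000022456) was higher in LG, with 46.5, 59.5 and 81.5 CPM in controls and 60.6, 72.8 and 96.5 CPM in LG, 0.32 ± 0.13 with LG1 and 0.31 ± 0.14 without it, and all 6 fish above the control median, but −0.13 for its main Trinity component alone. The bile acid enzyme hsd3b7 (ENSDARG00000036966) was low in LG1 and lower in the other LG fish too. It had 65.8, 104 and 232 CPM in controls and 39.3, 72.2 and 97.5 CPM in LG, the lowest in LG1. Its log2 fold change was −0.65 ± 0.23 and −0.53 ± 0.23, with all 6 fish below the control median. Amino acid breakdown and urea cycle genes (63 ids) had medians of −0.08 and −0.02, with LG1, at −0.19, inside the control range, and fatty acid synthesis and lipid storage genes (38 ids) 0.02 and 0.02. The lipogenic genes scd (ENSDARG00000030265) and thrsp (ENSDARG00000089241) ranged from 48.4 to 1180.0 CPM and from 53.6 to 3060.0 CPM among the controls, and their log2 fold changes were −0.15 ± 0.49 and −0.12 ± 0.51 with LG1.

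Cell cycle genes set LG1 and LG5 apart in opposite directions. The 74 ids of cell cycle and DNA replication had medians of 0.01 with LG1 and 0.11 without it. Of these ids 38 and 54 were above 0 (5982 and 5224 of all 10550 ids). At an unadjusted p below 0.05, 2 (2.7%) and 1 (1.35%) were higher, against 6.09% and 1.6% of all ids. Without LG5 the median was −0.26, of opposite sign. LG1 was at −1.09 and LG5 at 1.01, outside the controls' −0.84 to 0.69, and the other 4 lay between −0.17 and 0.08. LG5 lay above all controls in 38 of the 74 ids (51.4%, against 7.8% of all ids in that fish), and LG1 below all controls in 37 (50%, against 19.5%). The p53 targets and DNA damage genes (39 ids) had medians of −0.03 and 0.02, with 1 id lower at an unadjusted p below 0.05 in each fit, gadd45a, and 1 higher with LG1 and 0 without it. Apoptosis genes (35 ids) had 5 (14.3%) and 0 ids higher, against 6.09% and 1.6% of all ids, and 1 and 2 lower. In the apoptosis list LG1 and LG3 were the 2 high fish at 0.37 and 0.28, above the highest control at 0.13. Bax (ENSDARG00000020623), a pore-forming trigger of cell death, had −0.08 ± 0.11 and −0.09 ± 0.11. Autophagy and lysosome genes (69 ids) had 6 (8.7%) and 1 (1.45%) ids higher, near the shares of all ids. The cargo receptor sqstm1 (ENSDARG00000075014) was at 612 CPM in LG1 and 281 CPM in LG3 against 86.5 to 198 CPM in controls. Iron, heme and copper genes (51 ids) had 6 (11.8%) and 2 (3.92%) higher and 2 (3.92%) and 1 (1.96%) lower. In that list LG1 was at 0.68 and the other LG fish between −0.02 and 0.07. The zinc transporter slc39a6 (ENSDARG00000068143) was higher also without LG1, 0.54 ± 0.23.

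Circadian clock genes had a list value above 0 in all 6 LG fish, in 5 of them within the control range. Of 34 circadian clock ids, 24 with LG1 and 28 without it were above 0 (5982 and 5224 of all 10550 ids), with medians of 0.09 and 0.12. At an unadjusted p below 0.05, 4 (11.8%) and 2 (5.88%) were higher, against 6.09% and 1.6% of all ids. By fish the value ran from 0.05 to 0.35, and the controls ran from −0.22 to 0.34. The times of day at which fish were sampled were not used here. The repressor cryptochrome 2b (ENSDARG00000091131) had 0.946, 2.33 and 3.8 CPM in controls and 2.85, 3.63 and 5.79 CPM in LG, with 0.68 ± 0.25 and 0.54 ± 0.25 and all 6 fish above the control median. Of 8 estrogen-responsive egg protein ids, 4 with LG1 and 6 without it were above 0. Vitellogenin 1 (ENSDARG00000092233), the yolk precursor that estrogen induces in liver, had 2.21, 4.64 and 72.6 CPM in controls and 8.37, 11.9 and 181 CPM in LG. LG2 was the highest fish, all 6 lay above the control median, and the log2 fold change was 1.73 ± 0.75 and 1.94 ± 0.76, with exact permutation p of 0.0668 and 0.0511. Estrogen receptor esr1 (ENSDARG00000004111) had 0.05 ± 0.16 and 0.04 ± 0.17. Insulin, growth hormone and IGF signalling (27 ids) had medians of 0.09 and 0.06, and the PI3-kinase subunit pik3r1 (ENSDARG00000038524) was lower, −0.53 ± 0.19 and −0.41 ± 0.18.

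Nuclear receptors of liver metabolism (43 ids) had medians of −0.09 and −0.05, with LG1 at −0.54 below the lowest control at −0.16. At an unadjusted p below 0.05, 2 ids (4.65%) were lower with LG1 and 0 without it, against 1.98% and 1.73% of all ids. Riboflavin kinase rfk (ENSDARG00000060522), which makes the cofactor FMN, was at 103, 30.1 and 27.7 CPM in LG1, LG2 and LG3, each above the highest control at 25.8 CPM, and at 5.88 to 8.39 CPM in the other 3, with 1.56 ± 0.50 and 0.62 ± 0.43. The riboflavin transporter slc52a3 (ENSDARG00000042737) had −0.10 ± 0.31 and 0.10 ± 0.27. Among 10 ion pump ATPase ids, the ER calcium pump atp2a2 was high in LG1 in both ids, 82.4 CPM for ENSDARG00000029439 and 120.0 CPM for ENSDARG00000005122 against at most 15.4 and 26.2 CPM in controls. Collagens and matrix genes (77 ids) had medians of 0.06 and 0.05. By fish LG2 and LG4, at 0.32 and 0.17, were above the highest control at 0.14, and the other LG fish lay within the control range. LG2 lay above all controls in 21 of the 77 ids (27.3%, against 6.33% of all ids in that fish). Amino acid transporters (30 ids) had medians of 0.12 and 0.04. Mitochondrial ribosomal proteins (70 ids) had −0.01 and −0.10, with 37 of 70 below 0 with LG1 and 50 without it (4568 and 5326 of all 10550 ids).

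Markers of liver cell types were checked because a liver piece can carry other cells. The summed level of 20 hepatocyte markers was 126000, 142000 and 183000 CPM in controls and 113000 to 191000 CPM in LG, LG1 being the highest, and none of them was at 0 in a fish, so the libraries carried the markers of the labelled tissue. The 14 macrophage markers summed to 401, 1340.0 and 3600.0 CPM in controls, 4850.0 CPM in LG1, 2610.0 CPM in LG3 and 575 to 1230.0 CPM in the others, and none was at 0 in a fish. By the median over members the macrophage list was at 1.27 in LG1, 0.69 in LG2 and −0.61 in LG3, against −0.56 to 0.92 in controls. LG3 thus lay below every control by that measure, while its sum lay inside the control range. The 8 neutrophil markers were at 1.51 in LG1 and −0.29 in LG3 by the median, against −0.575 to 0.76 in controls. The neutrophil markers summed to 374 CPM in LG1, inside the controls' 240 to 574 CPM, with 1 of them at 0 in a fish. Macrophage markers were thus high in LG1 by both measures and neutrophil markers by the median only, beside the inflammatory genes of that fish, and their part in the results was not tested. By the median over members, T or NK cell markers (4 ids) were above all controls in LG1, at 0.96, and in LG5 and LG6. By the sum only LG6 was, at 78.2 CPM. LG1 summed to 64 CPM and LG5 to 70.4 CPM, inside the controls' 12 to 74.3 CPM. Thrombocyte markers (3 ids) were above all controls in LG1 and LG5 by both measures, with a median of 0.93 in LG1. Endothelial (10 ids) and erythrocyte (6 ids) markers were also above all controls in LG1, at medians of 0.37 and 0.77. B cell markers (7 ids) were within the control range in LG1 by the median, at 0.32. By the sum they were below it, at 55.5 CPM against 66.6 to 103 CPM. Exocrine pancreas markers (10 ids, 6 of them at 0 in some fish) summed to 95.3 to 265 CPM in controls and 71.2 to 172 CPM in LG. Of the stellate cell or fibroblast markers (12 ids), 6 were above 0 and 6 below with LG1. At an unadjusted p below 0.05, 2 (16.7%) were lower with LG1 and 1 (8.33%) without it, against 1.98% and 1.73% of all ids. By the median over members LG2 was at 0.439, above the controls' −0.146 to 0.168. LG1, LG3 and LG5, at −0.196, −0.151 and −0.439, were below that range.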

How the data were processed

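Liver RNA of single fish was sequenced as paired reads from TruSeq libraries. Per the study's methods and notes the authors assembled transcripts with Trinity, annotated them by BLASTx, mapped reads with Bowtie2 2.1.0, handled alignments with SAMtools 0.1.18 and tested with edgeR. The deposited values used here are raw read counts per Trinity transcript, and the authors' own fold changes and p-values in that table were not used. Reads that could come from related transcripts or gene copies, which salmonids have in number, may have been split between them.

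Counts of 43458 of 63514 transcripts were summed per zebrafish id (10550 ids), and those of the other 20056 per Trinity component (10493). Rows with at least 1 read in 6 fish were tested in edgeR 4.0.16 (R 4.3.3, TMM scaling, quasi-likelihood F-test, Benjamini-Hochberg FDR below 0.1, no covariates). The SE of a log2 fold change is its absolute value divided by the square root of the F statistic. It therefore carries no information apart from that test. Single genes were also tested by 2-sided exact permutation of log2 CPM (prior count 2) over all splits of the fish, with no adjustment over genes. For genes named by a small p, the permutation p rests on the same values and adds no support. Alternatives used DESeq2 1.42.0, the exact test of edgeR, limma 3.58.1, other scaling, filters and units, and left out each fish. The code was tested on simulated data.

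Zebrafish symbols are not in the table, so symbols are those its annotation gives for other fish or in descriptions, and may name a paralog. The members, 38 gene lists and 15 cell marker lists, 12 of them with members, were chosen with earlier results of these data known. Genes were named, among ids at 1 CPM or more, as the 8 higher and 8 lower with the smallest p without LG1, the 10 higher and 5 lower with the largest difference between fits, and from each list the 2 with the highest level and the 2 with the smallest p, with up to 8 more from each of the 3 lists whose medians lay furthest out. Apart from matn2, 99 ids are in the text, and 12 of these fall outside this rule and, like matn2, were chosen after their values were seen. Some genes that meet the rule are not reported here. No tank, sampling batch or original control group is in the labels, so none could be fitted.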

Additional observations from a re-analysis of the deposited data

Results flagged for a closer look

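Within the 6 LG fish, 1 fish lay far from the other 5 in 15 of 51 lists and in 20 of 99 named ids, and in each of them it was LG1. The id matn2 is not among these 99. The distance is given as the gap to the nearest fish divided by the whole range of the group, and values above Dixon's 95% critical value for 6 samples are listed. Chance alone gives about 1 in 20 groups, and the lists and genes of 1 fish are not independent. Of the named ids, 15 were named for the largest difference between fits with and without LG1, 9 of them among the 20, so that choice sets part of the number for ids, which is not to be read against chance.

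LG1 was the high fish in 12 lists, with ratios of 0.702 for all zebrafish ids, 0.741 for ER chaperones and unfolded protein response, 0.894 for ER-associated degradation and ER export, 0.725 for cytosolic heat shock proteins, 0.843 for proteasome subunits, 0.681 for sterol synthesis and its regulators, 0.642 for serine and one-carbon synthesis, 0.893 for aminoacyl-tRNA synthetases, 0.628 for NF-kappa B signalling, 0.873 for iron and copper handling, 0.661 for ion pump ATPases and 0.653 for neutrophil markers. It was the low fish in 3 lists, with ratios of 0.710 for bile acid synthesis and transport, 0.757 for glycolysis and glycogen and 0.707 for nuclear receptors of liver metabolism.

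Among named ids, on log2 of CPM plus 0.1, LG1 was the high fish with ratios of 0.695 for rsad2, 0.794 for atp2a2 ENSDARG00000005122, 0.869 for acat2, 0.854 for sele, 0.819 for hyou1, 0.858 for srp72, 0.735 for dnajb11, 0.754 for pglyrp2, 0.747 for atp2a2 ENSDARG00000029439, 0.796 for egr1, 0.714 for ENSDARG00000041119, 0.773 for p4hb, 0.786 for nars, 0.886 for chac1 and 0.701 for c1orf51. It was the low fish with ratios of 0.853 for cyp2j2, 0.662 for pik3r1, 0.890 for ENSDARG00000040135, 0.792 for cdca5 and 0.875 for shank1. In c1orf51 the other 5 LG fish also lay above every control, whereas in hyou1, egr1, chac1 and nars they lay within the control range. The values of LG1 beside the controls are given with each gene above. No difference between groups of exposed fish was tested here.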

How the results depend on the processing

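The quasi-likelihood test called 0 rows, and the exact test of edgeR called 131, DESeq2 23 and limma-voom 0. Leaving out 1 fish gave 0 to 1 calls, the 1 without LG3 being comp114644_c0, and leaving out LG1 and LG3, chosen after seeing the data, also gave 1. Per transcript the counts were 0 in the quasi-likelihood test, 290 in the exact test and 0 to 1 on leaving out 1 fish. Without LG1 the exact test and DESeq2 called 6 rows each. In 2 of the named genes, matn2 not being checked, the value changed sign beyond their standard error. These were eno1, to −0.13 by Trinity component, the cause not being tested, and ENSDARG00000041119, to −1.32 without LG1, the fish in which it was high. On leaving out 1 fish the latter ran from −1.32 to 3.87, the highest without C4.

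On leaving out 1 fish the list medians ran from 0.004 to 0.643 for ER chaperones, 0.316 to 0.637 for sterol synthesis and −0.155 to −0.088 for fatty acid oxidation. The lowest value of the first 2 came without LG1. With no scaling factor they were 0.415, 0.497 and −0.126.

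With the replicate number as a block, 0 rows were called and the medians were 0.326, 0.371 and −0.155. In that fit C7 to C12 have no LG fish of the same number, so the difference rests on C1 to C6 and LG1 to LG6 only. The numbers did not pair the fish, since the correlations of same-numbered deviations were −0.199, −0.05, −0.314, −0.173, 0.12 and −0.004. With 6 exposed fish and a median standard error of 0.18 on the log2 scale, a log2 fold change of −0.69 (phkb) did not pass FDR 0.1.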
